A study of Mus musculus with 8 samples.

Results

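The stretch of mouse chromosome 1 that runs from Ap1s3 to Serpine2 was described by its peaks of histone H3 acetylated at lysine 27 (H3K27ac). Both genes were chosen on the comparison described here, with earlier results of these libraries known: the Ap1s3 locus had the highest increase in peak-covered length after 4-hydroxytamoxifen (4OHT), and Serpine2 closes the stretch on the other side. All values from that comparison are therefore a description, with no test. They are 2 of 21887 protein-coding genes placed by RefSeq. With 50 kb added beyond each gene, the domain was chr1:79556869-79908665 of the mm10 build, 351.797 kb long. It held 21 of the 82792 union regions, which are stretches of overlapping peaks merged over the 4 libraries. Within it lie 4 protein-coding genes in the order Ap1s3, Wdfy1, Mrpl44 and Serpine2, and 1 long noncoding RNA gene, Gm39666.

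H3K27ac was measured by chromatin immunoprecipitation and sequencing in 2 clones of E14tg2a embryonic stem cells (strain 129SV), all stably carrying cRAF-ErT2, a RAF kinase that 4OHT switches on to activate the kinase ERK. The treated cells, clones a and b, received 250 nM 4OHT for 2 h, and the untreated cells, also clones a and b, received none; no vehicle-treated group is named. Before that, each group grew in serum medium containing LIF and Chir99021 at 2 uM, an inhibitor of the kinase GSK3. From 24 h ahead of treatment the labelled medium held serum, LIF and PD173074 (250 nM), which blocks FGF receptors.

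H3K27ac is placed by the acetyltransferases p300 and CBP and marks active promoters and enhancers. Ap1s3 encodes a small subunit of the clathrin adaptor AP-1, which sorts cargo between the trans-Golgi network and endosomes. That complex is unrelated to the transcription factor of the same name. Serpine2 encodes protease nexin-1, a secreted inhibitor of thrombin, urokinase and other serine proteases. Of the genes between them, Wdfy1 encodes an endosomal protein with a FYVE domain, and Mrpl44 a protein of the mitochondrial ribosome.

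The lists held 59170 to 63276 peaks per library and covered 50.4 to 53.1 Mb, with 200 bp as the narrowest peak. Read depth is unknown, so a region without a listed peak may still carry the mark. All 6 stem cell markers checked (Pou5f1, Sox2, Nanog, Esrrb, Zfp42 and Sall4) had a peak within 1 kb of the gene in each library. Of 6 fibroblast markers, Col1a1 and Twist1 had peaks in the 4OHT libraries (2.43 and 2.91 kb summed in clones a and b) and only Col1a1 in the untreated ones (0.657 and 0.717 kb). Col1a2, Col3a1, Thy1 and Postn had none within 1 kb in any library, and the part of these markers in the results below was not tested. Of 4 blood and endothelial markers only Pecam1 had peaks within 1 kb (18.6 and 11.0 kb with 4OHT, 14.0 and 12.4 kb untreated). Ptprc, Cdh5 and Hbb-bs had none within 1 kb. Within 50 kb, Col1a2, Col3a1, Thy1, Ptprc, Cdh5 and Hbb-bs each had a peak in at least 1 library, and Postn had none. In that wider window peaks around Ptprc covered 2.91 and 2.82 kb in 4OHT clones a and b, and 0.224 and 0 kb untreated.

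Gained regions were found at only one end of the domain. All 6 of them, that is regions called in both 4OHT libraries and in neither untreated library, lay beyond the 3′ end of Ap1s3, on the side away from Serpine2. The window of Serpine2 and 50 kb on either side held 0 of them. Lost regions, with the opposite pattern, numbered 0 in the domain. Over all union regions 6.20% were gained and 6.26% lost; since the genes were chosen on this contrast, nothing is read from the 28.6% of domain regions that were gained. Of the other 15 domain regions, 10 were called in a single 4OHT library and in neither untreated one (15.8% of all union regions). Of these, 8 were listed in 4OHT clone b and 2 in 4OHT clone a. A further 2 regions were called in all 4 libraries (36.4% of all union regions), 2 in both 4OHT libraries and untreated clone b, and 1 in untreated clone a alone. Taken clone by clone, clone a gained 10 regions (16.1% of all union regions) and lost 1 (18.0%), and clone b gained 14 (18.8%) and lost 0 (17.9%). In the upper 50% of each list by score 3 domain regions were gained (6.27% of all), and in the top 20000 peaks 2 (6.93%). The region at chr1:79580268-79583293 was gained in both shortened lists. The others were the start sites of Ap1s3 and Serpine2 in the upper 50% and a region within Wdfy1 in the top 20000. All of these others hold an untreated peak in the whole lists, ranked lower in its own list than the 4OHT peaks in theirs.

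**Figure D1:**
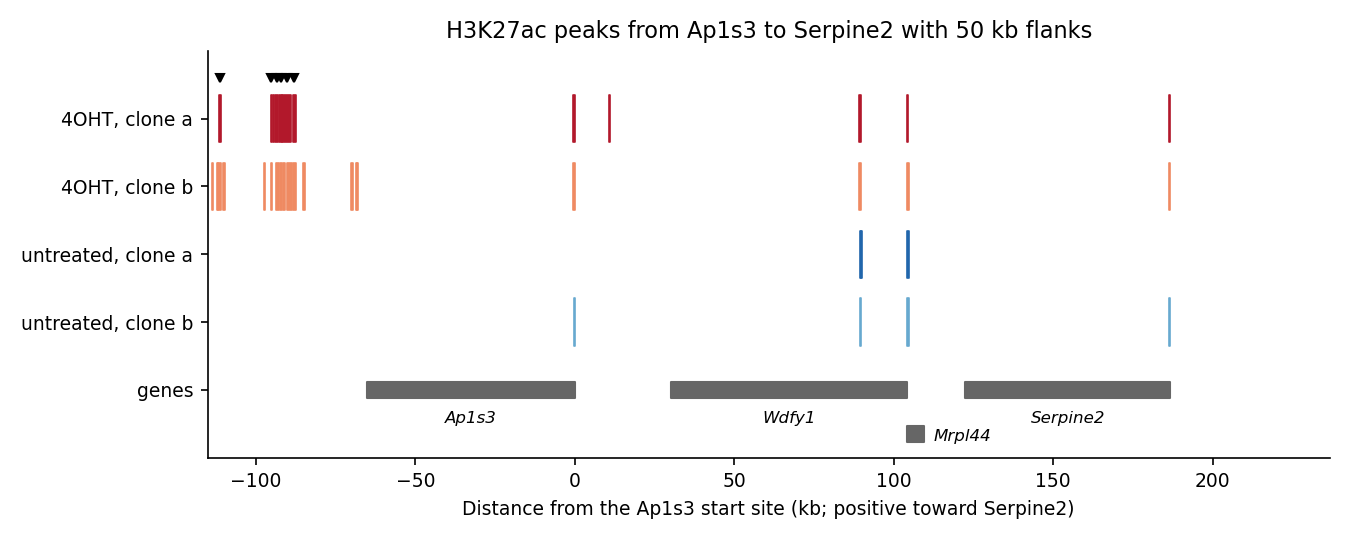
Peaks of each library (one row per library, 4OHT above untreated) against distance from the Ap1s3 start site in kb, with gene intervals at the bottom and a triangle over each of the 6 gained regions. All triangles, at the centres of the regions, lie between 87.9 and 111.3 kb from that start site on the side away from Serpine2, where the untreated rows are empty.

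The Ap1s3 gene covers chr1:79606869-79672018 on the minus strand, so its 3′ end faces Scg2, which lies 166.8 kb away. The 6 gained regions spanned chr1:79560220-79584569, a stretch of 24.35 kb within the gap between Scg2, a secretogranin gene, and Ap1s3. Their nearest edges lay 22.3 to 45.7 kb from the Ap1s3 interval and 87.4 to 110.8 kb from its start site. From Serpine2 they lay 209.7 to 233.2 kb, and from its start site 274.1 to 297.5 kb. The gained region nearest to Scg2 was 120.2 kb from that gene, so Ap1s3 was the nearest protein-coding gene for all 6. In the 50 kb beyond the 3′ end of Ap1s3, peaks covered 6.80 kb in 4OHT clone a and 9.49 kb in 4OHT clone b, and 0 kb in each untreated clone. Both 4OHT libraries were thus above both untreated libraries there, and no untreated peak was listed.

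Most of the gained length sat in a compact core. Of the 6 gained regions, 5 lay within chr1:79576638-79584569, which is 7.93 kb long. Peaks covered 76.8% of this core in 4OHT clone a and 69.2% in 4OHT clone b, against 0% in each untreated clone. The widest gained region, chr1:79580268-79583293, measured 3026 bp; the median of all 5130 gained regions was 527 bp, and 10 of them were wider. It was a single peak of 2849 bp in 4OHT clone a and a pair of peaks of 930 and 1634 bp in 4OHT clone b. Its 4OHT clone a peak stood at the 88.2 percentile of scores in its list. The 4OHT clone b peaks stood at the 92.1 and 87.2 percentiles of theirs. Scores are the authors' own values per peak, are ranked here only within a list, and are not compared as levels between libraries. In each 4OHT list, 6 of the 5130 gained regions ranked above this one.

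The other gained regions of the core were narrower and ranked lower. On the Ap1s3 side, chr1:79583527-79584569 held 914 bp of peak in 4OHT clone a (27.1 percentile) and 1021 bp in 4OHT clone b (54.1 percentile). On the Scg2 side, chr1:79579361-79580149 held 780 bp in 4OHT clone a (60.9 percentile) and 766 bp in 4OHT clone b (40.6 percentile). The edges of this last region differed by 23 bp at one end and 9 bp at the other between the clones. Next to it, chr1:79578072-79579213 held 769 bp in 4OHT clone a (37.5 percentile) and 919 bp in 4OHT clone b (56.9 percentile). The narrowest, chr1:79576638-79576930, held 251 bp in 4OHT clone a (22.2 percentile) and 220 bp in 4OHT clone b (16.1 percentile). Both widths were close to the 200 bp minimum. Among the gained regions of the core, the widest thus ranked highest and the narrowest lowest in both clones. Of those between, chr1:79579361-79580149 ranked highest in 4OHT clone a and lowest in 4OHT clone b, and the remaining pair kept their order. The sixth gained region lay apart from the core, at chr1:79560220-79561167, 45.7 kb from Ap1s3. It held 710 bp in 4OHT clone a (13.7 percentile) and 948 bp in 4OHT clone b (60.2 percentile).

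**Figure D2:**
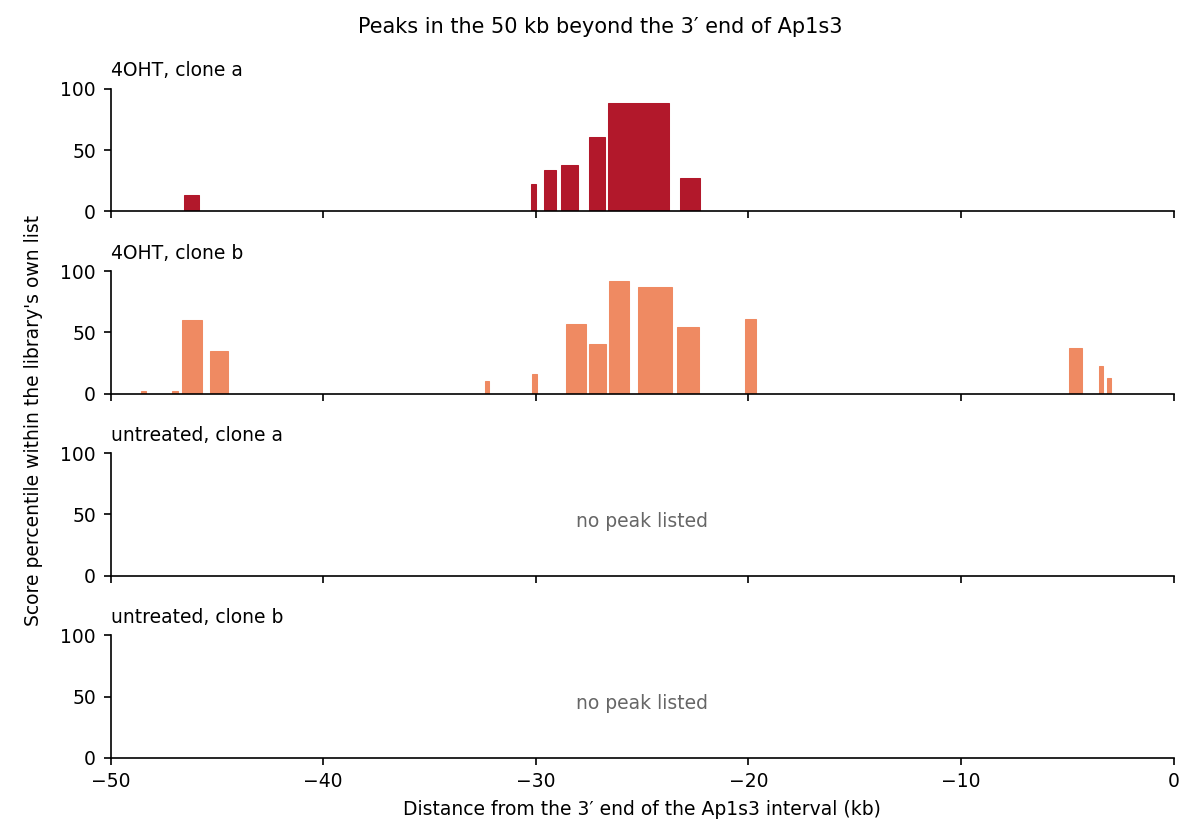
Peaks in the 50 kb beyond the 3′ end of Ap1s3, drawn to scale in kb, with the score percentile within each library's own list as bar height; 1 panel per library. The highest bars of the 4OHT panels (88.2 in clone a, 92.1 in clone b) lie over the same region, and the untreated panels hold no peak.

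The 4OHT clones shared the core and differed around it. Clone b listed 15 peaks in this 50 kb flank and clone a listed 7. In 4OHT clone b, 3 weak peaks lay 2.95 to 4.34 kb from the 3′ end of Ap1s3, at the 12.7 to 37.1 percentiles, where 4OHT clone a had none. The highest-ranked peak of 4OHT clone b without a partner, chr1:79586709-79587220, measured 512 bp and stood at the 61.2 percentile, 19.6 kb from Ap1s3. Of the domain's gained regions, only the widest ranked higher in that list. The widest without a partner, chr1:79561563-79562391, measured 829 bp (34.8 percentile). In 4OHT clone a, a peak of 531 bp inside the core (33.7 percentile) had no partner in 4OHT clone b. Over the domain, 81.1% of the bases in 4OHT clone a peaks lay in 4OHT clone b peaks, and 63.4% the other way; over the genome these shares were 77.8% and 79.0%. The edge of the domain did not cut through a listed peak: the outermost region began 1.45 kb inside it, and the 116.8 kb from there to Scg2 held 0 union regions.

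Inside Ap1s3 itself the mark was listed only at the start site. Leaving out the last 1 kb at the 5′ end, no library had a peak in the other 64.15 kb of the interval. At the start site (chr1:79671972, as placed by the RefSeq promoter entry) the peak measured 613 bp in 4OHT clone a and 530 bp in 4OHT clone b, 210 bp in untreated clone b, and none was listed in untreated clone a. The 4OHT clone a peak ran from 1 bp before the start site to 611 bp into the gene, and that of 4OHT clone b from 10 to 539 bp into the gene. The peak of untreated clone b covered 72 to 281 bp into the gene and was near the minimum width. The 4OHT peaks stood at the 53.4 and 61.2 percentiles of their lists in clones a and b, and the untreated one at the 33.7 percentile of its list. Because of the untreated clone b peak the region does not count as gained, whereas within clone a it would.

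Serpine2 covers chr1:79794317-79858665 on the minus strand, and its start site was called in the same libraries. Its peak measured 493 bp in 4OHT clone a and 432 bp in 4OHT clone b, 204 bp in untreated clone b, and none was listed in untreated clone a. The peaks began 38 and 111 bp into the gene in 4OHT clones a and b, and 105 bp in untreated clone b. They stood at the 55.1 and 72.5 percentiles with 4OHT, and the untreated one at the 43.9 percentile of its list. Both 4OHT peaks were wider than the untreated one, and the 2 start sites are the only regions of the domain called in both 4OHT libraries and untreated clone b alone (3.21% of all union regions had this pattern; 2.38% were called in both 4OHT libraries and untreated clone a alone). No library had a peak in the remaining 63.35 kb of Serpine2 or in the 50 kb past it.

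The genes between them held the regions that all 4 libraries shared. A peak within Wdfy1, 32.6 kb from the 3′ end of Serpine2 and 89.0 kb from Ap1s3, measured 633 and 731 bp with 4OHT in clones a and b, and 370 and 469 bp without it. The 4OHT widths did not overlap the untreated ones, but untreated clone a listed a second peak of 284 bp beside it that no other library had. Across the shared end of Wdfy1 and Mrpl44, whose intervals overlap, at chr1:79776054-79776778, the 4OHT peaks measured 497 bp in clone a and 725 bp in clone b, and the untreated peaks 540 and 558 bp. These widths overlapped between the treatments. The peak stood at the 84.7 and 89.4 percentiles with 4OHT in clones a and b, and at the 85.8 and 80.4 percentiles in the untreated clones, above the start sites of Ap1s3 and Serpine2 in each list that held them. Gm39666, between Mrpl44 and Serpine2, had no peak in any library.

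**Figure D3:**
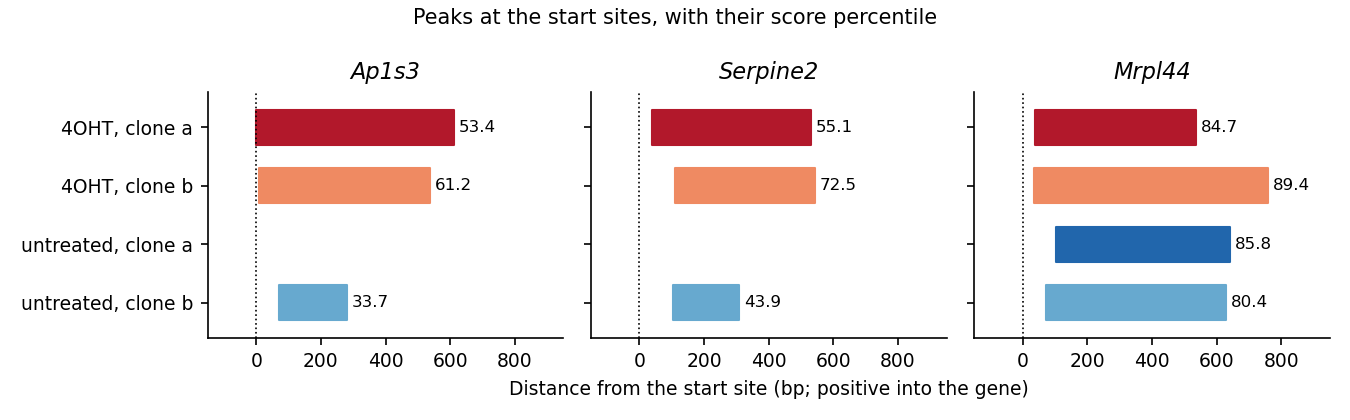
Peaks within 1 kb of the start sites of Ap1s3, Serpine2 and Mrpl44 by library, as distance from the start site in bp (positive into the gene); the number beside each bar is its score percentile within its own list. At Ap1s3 and Serpine2 the 4OHT bars are 432 to 613 bp wide, untreated clone b has bars of 210 and 204 bp, and untreated clone a has none, while Mrpl44 has a bar in each library.

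The promoter sequences are shown because the peaks at the start sites reach into them only at their downstream edge. Each is the RefSeq entry of 250 bases before to 50 after the start site, read 5′ to 3′ on the strand of the gene, with its mm10 (GRCm38.p6) position. Capitals mark bases that lay in a peak of at least 1 of the 4OHT libraries; no untreated peak reached any of these windows. Both genes of the pair and Mrpl44, the neighbour called in all libraries, had 1 entry each, and Wdfy1 is named only.
Ap1s3, chr1:79671923-79672222, minus strand: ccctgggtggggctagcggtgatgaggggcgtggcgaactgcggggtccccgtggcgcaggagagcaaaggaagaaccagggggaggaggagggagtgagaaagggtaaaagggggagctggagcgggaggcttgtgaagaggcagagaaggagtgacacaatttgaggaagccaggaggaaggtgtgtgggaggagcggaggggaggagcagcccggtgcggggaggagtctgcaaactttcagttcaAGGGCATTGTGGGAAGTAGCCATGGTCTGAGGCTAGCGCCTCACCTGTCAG
Serpine2, chr1:79858616-79858915, minus strand: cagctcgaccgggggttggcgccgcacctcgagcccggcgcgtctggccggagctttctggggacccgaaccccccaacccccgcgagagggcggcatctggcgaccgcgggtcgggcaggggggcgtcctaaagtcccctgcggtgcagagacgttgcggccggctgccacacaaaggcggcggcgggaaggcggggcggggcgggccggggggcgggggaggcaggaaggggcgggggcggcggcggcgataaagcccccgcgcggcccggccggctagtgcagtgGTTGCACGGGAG
Mrpl44, chr1:79775768-79776067, plus strand: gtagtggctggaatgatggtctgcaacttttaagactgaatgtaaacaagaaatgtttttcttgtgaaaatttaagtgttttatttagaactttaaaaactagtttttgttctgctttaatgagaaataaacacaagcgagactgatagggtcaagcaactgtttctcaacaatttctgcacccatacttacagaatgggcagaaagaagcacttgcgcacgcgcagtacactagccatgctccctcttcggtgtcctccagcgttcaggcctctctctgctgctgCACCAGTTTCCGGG

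At Ap1s3 the capitals count 51 bases, all in the 4OHT clone a peak and 40 of them also in that of 4OHT clone b. At Serpine2 they count 12 bases of the 4OHT clone a peak, and the 4OHT clone b peak began beyond the window. At Mrpl44 they count 14 bases of the 4OHT clone b peak, of which 11 lay in that of 4OHT clone a. The windows differed in base composition: 62.0% G or C and 11 CpG dinucleotides at Ap1s3, 77.7% and 41 at Serpine2, and 42.3% and 7 at Mrpl44, against medians of 52.7% and 7 over 32851 RefSeq promoter entries. Motifs were searched on both strands. The GC box GGGCGG matched 6 times at Serpine2, from position -161 to -13 relative to the start site, with 1 pair overlapping, and was found in 35.7% of all entries; it had 0 matches at Ap1s3 and Mrpl44. The ETS core CCGGAA matched at 43 bases after the start site of Mrpl44 only (14.9% of all entries). The AP-1 transcription factor site TGANTCA (7.81% of entries), the cyclic AMP response element TGACGTCA (1.79%), the TATA box TATAAA (13.6%) and the E-box CACGTG (7.15%) had 0 matches in the 3 windows. A match or its lack describes these letters in these windows and says nothing of a factor's binding.

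Summed over each gene with 50 kb on either side, peak-covered length separated Ap1s3 from the other genes of the domain. Around Ap1s3 it was 7.68 and 10.0 kb in 4OHT clones a and b, and 0 and 0.210 kb in untreated clones a and b, or 8.85 ± 1.66 kb with 4OHT and 0.105 ± 0.148 kb untreated (SD, n = 2 clones each). On the log2(covered bp + 500) scale, which understates changes of short lengths, 4OHT minus untreated was 4.03 in clone a and 3.89 in clone b. By the log2 difference this locus ranked 1 of 18880 loci with a peak, which is how it was chosen. Including this locus, 106 of 21887 loci (0.484%) held 6 or more gained regions, and 29.4% of loci held at least 1. Windows of neighbouring genes can share gained regions. Among all 5130 gained regions, 108 (2.11%) sat in a run of 6 or more no longer than the 24.35 kb here.

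Around Serpine2 the same quantity was 1.62 and 1.89 kb in 4OHT clones a and b, and 1.19 and 1.23 kb in untreated clones a and b. The treatments did not overlap, but the log2 difference was 0.33 in clone a and 0.46 in clone b, and 79.8% of loci with a peak had a lower one; the median over those loci was 0.08. Around Wdfy1 it was 2.00 and 1.99 kb with 4OHT in clones a and b, and 1.19 and 1.24 kb untreated. Around Mrpl44 it was 1.13 and 1.46 kb with 4OHT, and 1.19 and 1.03 kb untreated, so the treatments overlapped. The windows of Wdfy1, Mrpl44 and Serpine2 share peaks and are not separate results. Outside the span of the gained regions, the domain held 2.50 and 4.44 kb in 4OHT clones a and b, and 1.19 and 1.44 kb in untreated clones a and b. The span itself held 73.2% of the domain's peak-covered bases in 4OHT clone a and 62.8% in 4OHT clone b. Of the bases in untreated peaks of the domain, 67.1% in clone a and 99.6% in clone b also lay in a 4OHT peak of that clone.

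**Figure D4:**
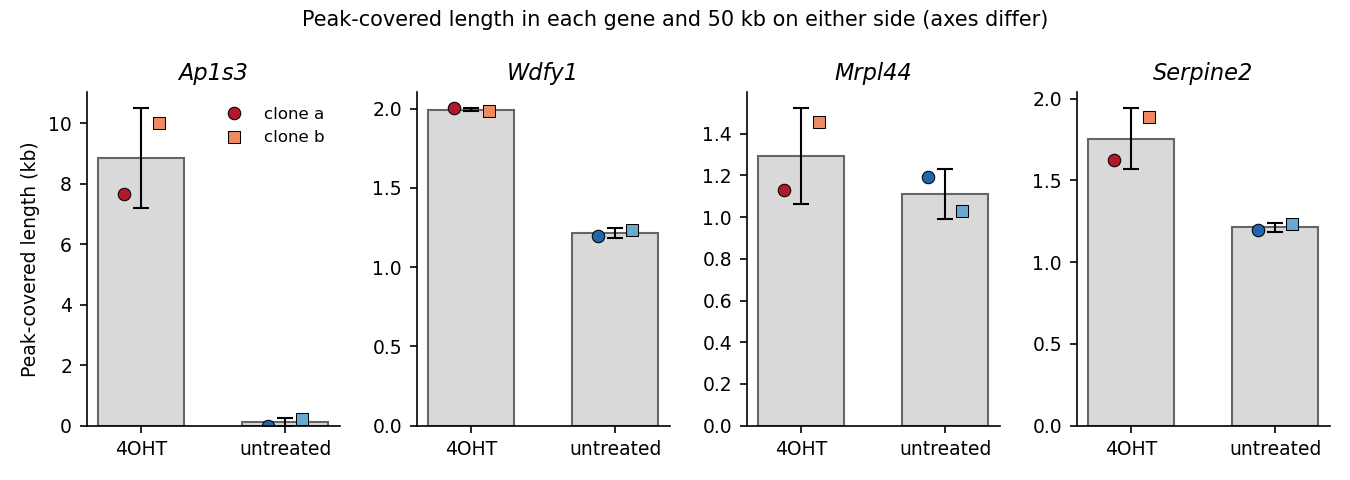
Peak-covered length in kb within each gene and 50 kb on either side, for 4OHT (left) and untreated (right); bars are means, error bars the SD of 2 clones, circles clone a and squares clone b, and the axes differ between panels. Around Ap1s3 the 4OHT clones have 7.68 and 10.0 kb and the untreated clones 0 and 0.210 kb; around Mrpl44 the treatments overlap.

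Other subunits of the AP-1 adaptor were set beside Ap1s3. Of the 7 other subunit genes, 2 held a gained region within 50 kb and 2 a lost one, next to 29.4% and 24.2% of all protein-coding loci. Their median log2 difference was 0.02, and that of all loci 0.01. With flanks of 10 kb 2 held a gained and 1 a lost region, and in the upper 50% by score 3 and 1, where the shares of all loci were 14.8% and 11.2%, and 19.8% and 14.4%. Ap1s1, which encodes a small subunit like Ap1s3, held 5 gained and 0 lost regions, with 10.6 and 13.5 kb in 4OHT clones a and b, and 8.12 and 7.41 kb in untreated clones a and b. Ap1s2, another small subunit gene, held 1 gained and 0 lost. Ap1b1 and Ap1m1, which encode a large and a medium subunit, held 0 gained and 2 lost each. Around Ap1m1 peaks covered 7.00 and 5.91 kb in 4OHT clones a and b, and 10.5 and 9.20 kb in untreated clones a and b, without overlap.

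For Serpine2 the genes of plasminogen activation, its inhibitors and their receptors were counted. Of 19 genes other than Serpine2, 12 held a gained region within 50 kb and 1 a lost one (29.4% and 24.2% of all loci), and 14 had any peak. Their median log2 difference was 0.30, next to 0.01 over all loci, with 13 above 0 and 1 below. With flanks of 10 kb, 6 of the 19 held a gained and 0 a lost region (14.8% and 11.2% of all loci). In the upper 50% of each list by score, 6 held a gained and 2 a lost region (19.8% and 14.4% of all loci). Windows of genes in the 2 lists can share gained regions, so their counts are not independent. Mmp9, a matrix metalloprotease gene, held 3 gained and 0 lost, with 6.78 and 5.27 kb with 4OHT in clones a and b, and 3.94 and 3.18 kb untreated. F2r and F2rl1, which encode receptors cleaved by serine proteases, held 2 gained and 0 lost regions each, with none shared. Plaur, the urokinase receptor gene, held 1 gained and 2 lost. Its peaks covered 21.06 and 19.85 kb with 4OHT in clones a and b, and 15.86 and 14.93 kb untreated, without overlap. Serpine2 itself held 0 of either.

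The loci with the most similar lengths over the 4 libraries were found by Euclidean distance on the log2(covered bp + 500) scale, among genes outside the domain. For Ap1s3 these were Gsn, which encodes the actin-severing protein gelsolin (distance 1.00), Mep1a, a meprin metalloprotease gene (1.17), and Hoxd4, a homeobox gene (1.32). Gsn had 3.85 and 7.55 kb in 4OHT clones a and b, and 0 and 0.304 kb in untreated clones a and b, with 5 gained and 0 lost regions. Mep1a held 5 and 0, and Hoxd4 8 and 0. For Serpine2 they were Gm21154 (0.12), Cog3, which encodes a Golgi tethering subunit (0.13), and Zfp326 (0.13), with 1, 0 and 0 gained regions in that order and 0 lost.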

How the data were processed

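H3K27ac peak lists of 4 libraries, 4OHT and untreated clones a and b, were used, and the 4 inputs were not used here. Bowtie2, bedtools and MACS2 on mm10 are named per the submitters' processing notes; for versions, thresholds and the role of input the sources used here give nothing. Each deposited list holds the peaks of a single library with a score per peak, whose scale is not stated; percentiles of the score were taken within a list. The lists give no read counts, so no interval or floor can be given.

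Overlapping peaks (1 bp or more) were joined into union regions (Python 3.11.15, pandas 2.3.3, numpy 2.4.6); the steps were tested on simulated peaks. Gene intervals, start sites and promoters came from RefSeq (GRCm38.p6, the coordinates of mm10). Covered length was compared as log2(covered bp + 500). Clone letters link the treatments, and clones are the only replicates; whether they were separate cultures beyond that is not stated.

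The members and gene lists were chosen with earlier results of these data known, so no test was run. Named genes were the pair, the protein-coding genes of the domain and its flanks, per list at most 4 members each for gained and for lost regions, the markers, and the 3 loci most like each gene. A single gene so named is left out. Alternatives covered score filters, list length, merging, overlap, scaling, pseudocounts, flanks and leaving out libraries.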

Additional observations from a re-analysis of the deposited data

How the results depend on the processing

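No test was run, because the genes were chosen on this contrast. With clone as a replicate block, added after seeing the data, the log2 differences were the same and their SE smaller: 3.96 ± 0.07 around Ap1s3 (± 0.31 without the block), 2.60 ± 0.07 (± 0.20) for the domain and 0.39 ± 0.07 (± 0.09) around Serpine2 (n = 2 clones). Gained regions numbered 6 as reported. They numbered 3 in the upper 50% by score, 2 in the top 20000 peaks, 2 with peaks within 1000 bp merged and 0 with 10 kb flanks. Within clone a they numbered 10, and within clone b 14. Where a peak had to cover 50% of a region to count, 8 were gained. These included both start sites, where the untreated clone b peaks covered 210 of 613 bp at Ap1s3 and 204 of 505 bp at Serpine2. Leaving out a library gave 6 to 14. Without 4OHT clone a the number was 14, as 8 regions of 4OHT clone b then count. Lost regions numbered 1 within clone a and 0 to 1 with a library left out. In the upper 50% by score the start sites of Ap1s3 and Serpine2 both counted as gained (distance 0 kb to each), because the peaks of untreated clone b there ranked below the filter. The log2 difference of the domain (2.60 as reported) was 2.36 in the upper 50%, 2.17 in the top 20000, 2.91 and 1.92 with pseudocounts of 100 and 2000 bp, 0.92 with 10 kb flanks and 2.43 to 2.77 with a library left out. For Ap1s3 (3.96) these were 3.53, 2.68, 5.66, 2.36, 1.33 and 3.71 to 4.21, and 3.09 with 100 kb flanks. For Serpine2 (0.39) they were 0.62, 0.91, 0.50, 0.22, 0.70 and 0.31 to 0.48. In these settings, in lists of equal length and scaled to covered length, all 3 differences kept their sign. In the AP-1 adaptor list with Ap1s3 (3 genes with gained and 2 with lost regions) these were 2 and 1 with 10 kb flanks, and 4 and 1 in the upper 50%. In the plasminogen list with Serpine2 (12 and 1) they were 6 and 0, and 7 and 2. Of all loci, 14.8% and 11.2% held gained and lost regions with 10 kb flanks, and 19.8% and 14.4% in the upper 50%. Depth is unknown, so peaks near the minimum width cannot be weighed further.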

Other observations

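Beyond the domain on the side of Serpine2, the 290.0 kb up to Fam124b held 4 union regions, of which 2 were gained and 1 lost. Over all union regions 6.20% were gained and 6.26% lost, and nothing is read from so few regions. The gained pair lay 291.5 and 292.6 kb past Serpine2 and 47.9 and 46.9 kb before Fam124b, so these regions stood nearer to Fam124b. The first held 473 and 618 bp of peak in 4OHT clones a and b, at the 70.2 and 68.9 percentiles of their lists. The second held 217 and 495 bp, at the 13.7 and 41.9 percentiles, and its 4OHT clone a peak was near the minimum width. Another region beside them, of 514 bp, was listed in 4OHT clone b alone. The lost region, 11.9 kb before Fam124b, had 232 bp in untreated clone a and 321 bp in untreated clone b.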
